A study of Arabidopsis thaliana with 24 samples.

Results

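The plastid of Arabidopsis keeps a small circular genome of its own, and the genes read from it are described here across heat and genotype. Members were all rows whose identifier starts with ATCG, the prefix of plastid genes, and that held read counts, which gave 94 of the 32328 genes with values. The libraries came from whole seedlings of the Columbia background, either wild type (WT) or the mutant labelled pif4 with genotype pif4-101, a line with a mutation in the gene of the light- and temperature-regulated transcription factor PIF4. Stratified seeds of all groups received 3 h of white light at 22 °C, grew in darkness at 22 °C for 3 days, and then stayed at 22 °C or moved to 37 °C for 3 h. Each of the 4 groups held 3 libraries of poly(A) RNA, lettered a, b and c, and labels of a further 12 libraries from PIF4pro:PIF4-3xFlag lines were not analysed here. The series calls its samples biological triplicates, but nothing says that they came from separate sowings, so the p-values speak only of the spread among the sequenced libraries, which may be technical.

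Plastid genes encode the core of the photosynthetic machinery together with part of the apparatus that expresses it. They are transcribed by a bacterial-type polymerase, whose core subunits are the plastid genes rpoA, rpoB, rpoC1 and rpoC2, and by phage-type polymerases encoded in the nucleus, which read the rpoB cluster and many housekeeping genes. Most plastid genes lie in clusters that are transcribed together and then cut into smaller RNAs. Unlike in the cytosol, a poly(A) tail in the plastid marks RNA for decay, so libraries of poly(A) RNA need not hold plastid RNAs in proportion to their pool. In dark-grown seedlings the organelle is an etioplast, which has not yet built the thylakoids of a green chloroplast.

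Of 133 plastid rows, 39 carried no value. For 30 of them the sequence of the gene occurs at least 2 times in the plastid genome, as do the genes of its inverted repeat; these include rpl2, rpl23, rps7, ndhB and ycf2. The 94 members with values comprised 15 genes of photosystem II, 5 of photosystem I, 5 of the cytochrome b6f complex, 6 of the ATP synthase, 10 of the NDH complex and 1 of Rubisco. A further 20 rows belonged to ribosomal proteins, of which 3 were parts of rps12, 4 to the RNA polymerase, 19 to RNA genes and 9 to other functions. The filter on low counts kept 84 members, and the 10 it removed were all transfer RNA genes; trnK and trnV.1 had 0 reads in every library. rps14, with 109 reads over the 12 libraries, was the lowest protein-coding member.

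Libraries held between 3176106 and 14791597 reads on genes, and between 63871 and 448038 of these fell on plastid members. Root markers (CASP1, CASP2, NRT1.1), shoot markers (RBCS1A, HLS1) and PORA, a marker of dark-grown shoots, were present in all 12 libraries. At 37 °C the root marker CASP2 lay between 5.75 and 10.3 CPM (counts per 1000000 reads of the TMM-scaled library), against 52.4 to 69.5 at 22 °C. The other root markers differed from it: CASP1 lay between 44.45 and 81.45 against 106.1 to 166.5. NRT1.1 was not lower, between 193.8 and 267.2 against 141.9 to 206.7. PORA lay between 306 and 650 against 1240 to 1547, and the shoot marker RBCS1A between 3966 and 4587 against 2711 to 4039. Of the markers of light exposure, ELIP1 lay between 96.1 and 148 CPM at 37 °C against 5.59 to 21.1 at 22 °C, and FLS1 was at 0 in the heated libraries and at most 4.12 CPM in the others. Their part in the results below was not tested. PIF4 read between 7.80 and 13.3 CPM at 22 °C in WT and between 11.1 and 24.0 CPM in the libraries labelled pif4. At 37 °C it read 22.1, 33.3 and 30.9 CPM in WT and 21.6, 22.0 and 22.6 CPM in pif4. It was thus not lower in the mutant at 22 °C and lower on average at 37 °C, and counts over the whole gene do not check an allele whose lesion the labels do not describe. Heat for 3 h changed the scale of the whole table: 51.5% of the 18774 genes tested were called in WT, and TMM scaling and scaling to total counts differed by 1.02 in the median log2 fold change of all genes. Values below are TMM-scaled CPM unless stated, and 45 of the 84 tested members in WT and 42 in pif4 changed sign when scaled to total counts, all from above 0 to below it. In whole seedlings, fewer cells of a type and less RNA per cell cannot be told apart.

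At 22 °C, plastid members took 3.11% ± 0.457 (SD, n = 3) of the reads in WT and 2.92% ± 0.291 in pif4. At 37 °C the share was 2.22% ± 0.357 in WT and 2.06% ± 0.0761 in pif4. The 3 WT libraries held 3.49%, 3.24% and 2.61% at 22 °C and 1.90%, 2.61% and 2.15% at 37 °C, so that the lowest at 22 °C and the highest at 37 °C were nearly equal. The pif4 libraries held 2.9%, 3.21% and 2.63% at 22 °C and 2.05%, 2.15% and 2.00% at 37 °C, without overlap. Part of the lower share went with the reads that heat-induced chaperone genes took. With these left out of the total, the mean share was still lower after heat. It was 3.12% in WT and 2.92% in pif4 at 22 °C, and 2.75% and 2.61% at 37 °C. On the TMM scale the direction was the opposite. The summed level was 22010 CPM at 22 °C and 31440 CPM at 37 °C in WT, and 20494 and 29457 CPM in pif4. The mitochondrion-encoded genes, the other organelle set, took 3.17% ± 0.877 of reads in WT at 22 °C and 3.18% ± 0.366 at 37 °C, and 2.92% ± 0.947 and 2.42% ± 0.445 in pif4.

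**Figure D1:**
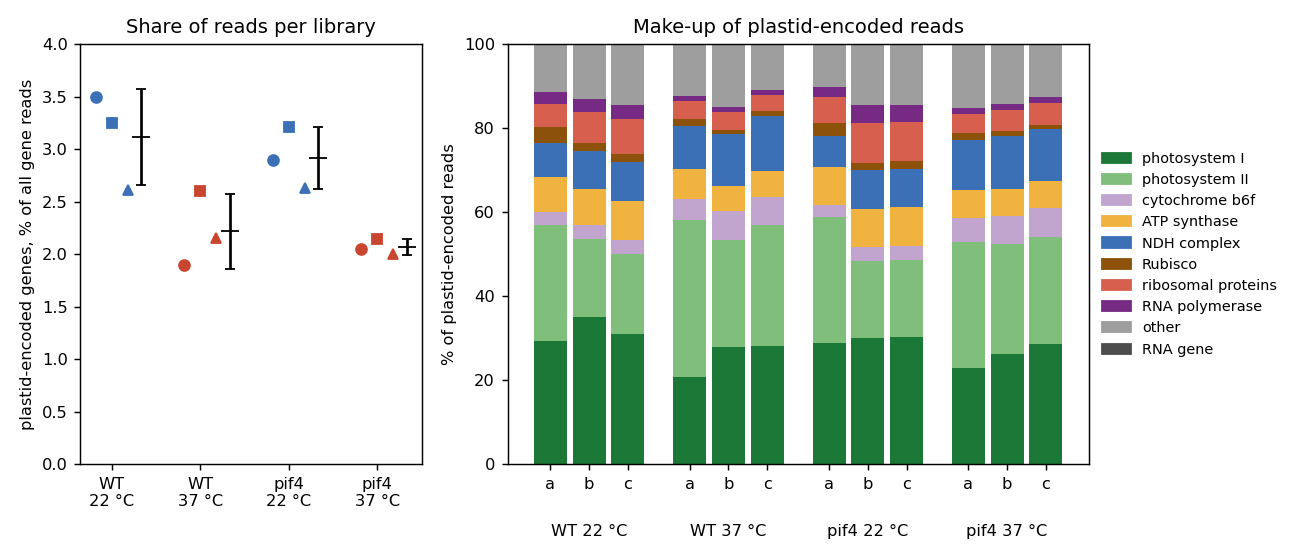
Left, percent of all gene reads on plastid-encoded members in each library (circle a, square b, triangle c; blue 22 °C, red 37 °C; bar, mean ± SD, n = 3). Right, how those plastid reads divided among functional classes in each library. As class sums, cytochrome b6f and NDH genes took more of them at 37 °C and ribosomal protein and RNA polymerase genes less. Photosystem II genes took more on average, with libraries at 22 °C and 37 °C overlapping in both genotypes. In WT, petB went from between 1.46% and 1.87% to between 3.70% and 5.52%. There ndhD went from between 4.29% and 5.28% to between 6.78% and 9.65%, while petA, ndhI, ndhA and ndhH took less.

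A handful of genes supplied most plastid reads. The 6 members with the most reads took between 56.8% and 67.0% of the plastid reads of a library, and in most libraries they were psaB, psaA, psbD, psbC, matK and ndhD. psaA and psaB encode the paired core proteins of photosystem I, psbD and psbC encode the D2 and CP43 proteins of photosystem II, matK an intron maturase, and ndhD a subunit of the NDH complex, which cycles electrons around photosystem I. On a scale of CPM per kb of coding sequence, which allows comparison between genes, psbD was highest in WT at 22 °C with 2316 ± 674 (SD, n = 3), followed by psaB with 1704 ± 308, psaA with 1359 ± 289 and matK with 1034 ± 83.6. The spreads of psbD and psaB overlapped, and so did those of psaB and psaA. The median over 70 protein-coding members with a single reference gene was 224 CPM per kb, and rps14 was lowest with 3.06. Genes known for abundant RNA in green leaves stood lower: rbcL, for the large subunit of Rubisco, ranked 16 of 70 with 401 ± 241 CPM per kb, and psbA, for the D1 protein of photosystem II, ranked 52 with 103 ± 108. In pif4 at 22 °C the same 5 genes led in the same order, psbD, psaB, psaA, matK and psbC. At 37 °C petB stood next to psbD in WT and in pif4, with 2409 ± 768 and 2343 ± 280 CPM per kb, up from rank 12 and rank 14.

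**Figure D2:**
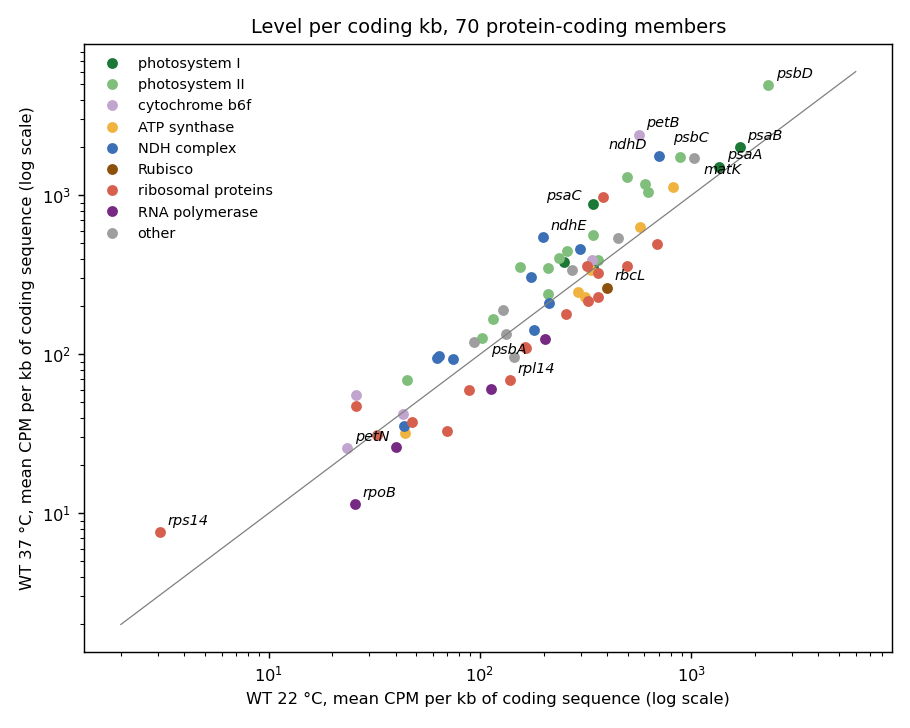
Mean level per kb of coding sequence of 70 protein-coding members in WT at 22 °C (x axis) and 37 °C (y axis), both on log scales, coloured by functional class; the line marks equal levels. psbD is highest at both temperatures, petB lies farthest above the line, and rpoB lies below it.

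Sequence stretches from the members on which the heat results turn are shown because the libraries were made through poly(A): each line gives the longest run of A within the gene, in capitals, on the transcribed strand 5′ to 3′ with up to 20 bases on either side. They were read from the RefSeq plastid sequence of TAIR10.1 and written with positions of that assembly. The run lies in coding sequence except in petB, where it lies in the intron.
rpoB (Pltd:25664-25713, minus strand): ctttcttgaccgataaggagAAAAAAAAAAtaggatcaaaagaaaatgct
rpoC2 (Pltd:17906-17958, minus strand): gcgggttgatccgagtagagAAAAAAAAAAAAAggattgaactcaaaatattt
rpoA (Pltd:78075-78128, minus strand): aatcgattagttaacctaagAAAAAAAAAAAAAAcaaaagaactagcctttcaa
rpl14 (Pltd:80763-80806, minus strand): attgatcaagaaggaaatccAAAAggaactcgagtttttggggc
petB (Pltd:75042-75088, plus strand): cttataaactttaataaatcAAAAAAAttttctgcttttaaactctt
ndhD (Pltd:116240-116285, minus strand): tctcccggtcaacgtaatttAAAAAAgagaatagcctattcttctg
psaC (Pltd:117525-117563, minus strand): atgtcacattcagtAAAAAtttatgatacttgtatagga
psbD (Pltd:32725-32769, plus strand): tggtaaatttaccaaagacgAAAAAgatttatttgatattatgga
psbA (Pltd:1348-1391, minus strand): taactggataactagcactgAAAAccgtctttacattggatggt
The longest run of A ranged from 2 to 14 bases over the 70 genes, with a median of 6. The class median was longest in the RNA polymerase genes, at 11.5 bases with a range of 9 to 14, and was 3 bases in photosystem II. accD and clpP1 held runs of 13 bases. Introns were searched too, and runs were not adjusted for gene length. Coding sequences held 990 to 4131 bases in the RNA polymerase genes and 102 to 1527 in photosystem II. Across the 70 genes the length of the longest run showed a Spearman correlation of -0.13 with the WT level per kb at 22 °C. With the heat change it showed -0.35 in WT and -0.40 in pif4, and coding length showed -0.29 and -0.25. Genes share libraries and are not independent, and these values are descriptions.

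psbD and psbC share 53 bases at their border, where reads cannot be given to one gene or the other. They are printed because both genes rank among the most read members.
psbD and psbC (Pltd:33720-33772, plus strand): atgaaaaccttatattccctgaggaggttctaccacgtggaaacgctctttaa
Further overlaps were 16 bases between rps3 and rpl22 and 4 bases between atpE and atpB, and matK lies within the trnK intron. Which strand was counted is not stated in any source at hand, and so reads of psbN, which lies opposite to the psbB cluster, cannot be told apart from antisense reads.

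On the TMM scale, plastid genes changed in both directions after 3 h of heat, and the medians of the functional classes differed in sign. In WT, 26 of the 84 tested members rose and 11 fell by edgeR's quasi-likelihood test with Benjamini-Hochberg adjustment over all genes, at an adjusted p under 0.05. Over all genes tested, 25.5% were higher and 26.0% lower, so the share that rose was near the background and the share that fell lay under it. In pif4, 25 members rose and 10 fell, against 25.6% and 24.1% of all genes, with 49.7% of all genes called. The median log2 fold change of the members was 0.25 in WT and 0.30 in pif4, beside -0.12 and -0.10 over all genes. The 2 genotypes share no library: 22 members rose in both, 8 fell in both, and 42 were called in neither. No member rose in one and fell in the other. Scaled to total counts, the split was 3 higher and 45 lower in WT and 2 and 47 in pif4, and scaled to plastid reads it was 7 and 26 in each genotype. Of all 18774 genes, 13425 in WT and 13393 in pif4 were called to total counts, with 13.3% and 13.1% of these higher. To plastid reads, 10299 and 9910 were called, with 24.1% and 24.7% of these higher, so the calls over all genes leaned the same way. Under all 3 scalings and in both genotypes, petB and psaC were higher, and those lower included rpoC2, rpoC1, rpoB, ycf3, rpl14, rpl16 and rps3. On the TMM scale, 17 of the 26 higher and 7 of the 11 lower calls in WT, and 21 of 25 and 6 of 10 in pif4, were kept whichever of the 6 libraries was left out, and no called member changed sign.

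**Figure D3:**
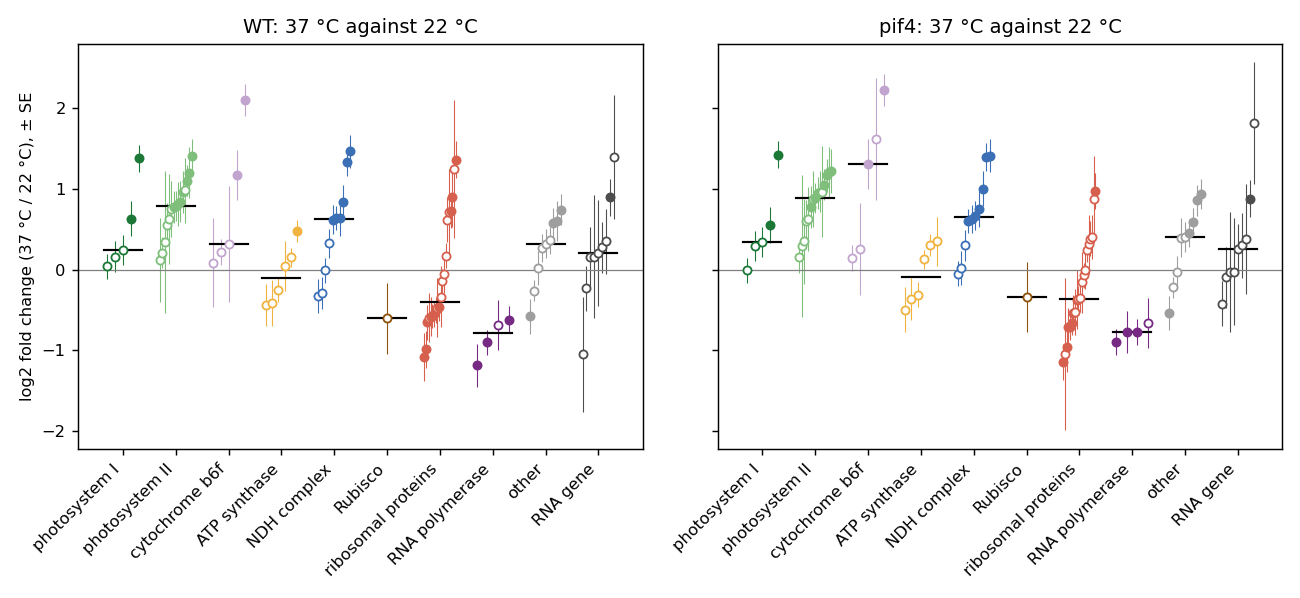
Log2 fold change of each tested member at 37 °C against 22 °C (± SE, TMM scaling) by functional class, in WT (left) and pif4 (right); filled points passed an adjusted p under 0.05, and the bar is the class median. All 15 photosystem II genes lie above 0 on this scale, the 4 RNA polymerase genes lie below it, and petB is the highest point in both.

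Among the genes of the light reactions, photosystem II members rose on the TMM scale. The same 8 of 15, psbK, psbI, psbM, psbD, psbJ, psbL, psbF and psbH, rose in both genotypes and none fell, with a class median of 0.79 in WT and 0.89 in pif4. psbK lost its call in 4 of 6 leave-out fits in pif4 (without 22 °C b or c, or 37 °C a or b). In WT, psbL lost its call without b or c at either temperature and psbF without 22 °C b or c. The direction turned with scaling: to total counts the class median was -0.22 in WT and -0.14 in pif4, and to plastid reads 0.26 and 0.36. psbD, the most read gene of the class, held 3233, 2326 and 1820 CPM in the 3 WT libraries at 22 °C and 5380, 5331 and 5099 CPM at 37 °C. It held 3139, 2204 and 1784 CPM in pif4 at 22 °C and 4920, 4547 and 4259 CPM at 37 °C. Every heated library lay above every control library, and psbD rose by 1.1 ± 0.20 (log2, SE) in WT, adjusted p = 0.000103, and by 0.95 ± 0.20 in pif4, adjusted p = 0.000485. To total counts psbD stood at 0.10 in WT and turned to -0.06 in pif4. psbM, for a small subunit at the dimer interface, went from between 40.0 and 68.4 CPM to between 112 and 156 CPM in WT, a rise of 1.41 ± 0.20 with edgeR adjusted p = 1.02e-05.

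Of the 5 cytochrome b6f genes, petB, for cytochrome b6, and petD, for subunit IV, rose in both genotypes. petB read 377, 391 and 330 CPM in WT at 22 °C and 1003, 1960 and 1720 CPM at 37 °C. In pif4 it read 282, 392 and 301 CPM at 22 °C and 1309, 1622 and 1624 CPM at 37 °C. The lowest heated library stood far above the highest control library, although library a in WT was well below the others. The rise was 2.09 ± 0.20 in WT, adjusted p = 3.38e-08, and 2.22 ± 0.20 in pif4, adjusted p = 1.53e-08 (edgeR), and to total counts it was 1.09 and 1.19. As a share of plastid reads, petB went from between 1.46% and 1.87% to between 3.70% and 5.52% in WT. petD was far lower, at 19.0, 10.2 and 8.41 CPM in WT at 22 °C and 21.7, 27.0 and 31.6 CPM at 37 °C, and rose by 1.17 ± 0.31. petA, for cytochrome f, was not called, with 0.22 ± 0.16 in WT and 0.14 ± 0.16 in pif4, and both turned below 0 under the other scalings.

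Photosystem I split by gene. psaC, which carries the iron-sulphur clusters on the stromal side, read 95.7, 87.1 and 69.9 CPM in WT at 22 °C and 172, 232 and 247 CPM at 37 °C. It rose by 1.37 ± 0.16 in WT and 1.42 ± 0.16 in pif4, with adjusted p = 6.37e-07 and 4.26e-07 (edgeR), and stayed called to total counts with 0.36 and 0.40. psaI also rose on the TMM scale, a call lost in 4 of 6 leave-out fits in each genotype (without b or c at either temperature in WT, and without 22 °C c or any 37 °C library in pif4), while psaA and psaB did not pass the test. psaB held 3935, 4329 and 3007 CPM in WT at 22 °C and 2999, 5388 and 4899 CPM at 37 °C, so the groups overlapped, with a change of 0.24 ± 0.19. To total counts psaB was called lower, with -0.77 in WT and -0.74 in pif4. The class took 31.8% ± 2.86 of the plastid reads of WT at 22 °C and 25.6% ± 4.14 at 37 °C.

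Of the 10 NDH genes, 6 rose in WT and 7 in pif4 on the TMM scale, and none fell. ndhC, ndhK, ndhJ, ndhD, ndhE and ndhG were shared, and ndhF was added in pif4. ndhJ lost its call in WT without b or c at either temperature, and in pif4 without 22 °C c. To total counts 1 was higher and 5 lower in WT, and 0 and 5 in pif4. ndhD read 1113, 1140 and 930 CPM in WT at 22 °C and 1839, 3074 and 3060 CPM at 37 °C, with no overlap. It rose by 1.33 ± 0.17 in WT and 1.39 ± 0.17 in pif4, adjusted p = 2.51e-06 and 1.44e-06 (edgeR). ndhE rose by 1.46 ± 0.20 and 1.41 ± 0.20. ndhI, ndhA and ndhH did not pass the test, with changes between -0.33 and 0.30 over both genotypes. Of the 6 ATP synthase genes only atpE, for the epsilon subunit, was called, in WT alone, with 0.48 ± 0.14 and edgeR adjusted p = 0.00698; in pif4 it read 0.30 ± 0.14 with adjusted p = 0.0731. The interaction of atpE with genotype was not called. To total counts all 6 were lower in both genotypes. rbcL read 969, 452 and 309 CPM in WT at 22 °C and 423, 361 and 352 CPM at 37 °C, and was not called on the TMM scale, with -0.60 ± 0.44. It was called lower in both genotypes to total counts, with -1.59 and -1.33, and to plastid reads, with -1.03 and -0.84.

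The RNA polymerase genes went the other way, and all 4 were below 0 under all 3 scalings. On the TMM scale, rpoB, rpoC1 and rpoC2 fell in both genotypes, and rpoA was below its control by a like amount without passing the test, with -0.68 ± 0.31 in WT and -0.66 ± 0.31 in pif4 (edgeR adjusted p = 0.0795 and 0.0875). rpoB, for the beta subunit, read 120, 73.3 and 55.4 CPM in WT at 22 °C and 51.4, 34.7 and 24.5 CPM at 37 °C. The groups did not overlap, and it fell by 1.19 ± 0.27 on the log2 scale, adjusted p = 0.00127. In pif4, rpoB read 70.7, 84.4 and 62.5 CPM at 22 °C and 41.7, 48.5 and 36.5 CPM at 37 °C, a fall of 0.78 ± 0.26 with edgeR adjusted p = 0.0195. This call was lost without 22 °C library b or 37 °C library a or c, with an adjusted p of up to 0.0762. rpoC1, for the beta-prime subunit, fell by 0.90 ± 0.16 in WT and by 0.89 ± 0.16 in pif4. The class share of plastid reads was 3.12% ± 0.311 in WT at 22 °C and 1.25% ± 0.00819 at 37 °C, and 3.53% ± 0.952 and 1.42% ± 0.122 in pif4. These genes held 31.8% to 37.2% A in their coding sequence, beside a median of 30.1% over 70 protein-coding members and of 36.6% in ribosomal protein genes.

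Among 20 ribosomal protein rows, 7 fell and 3 rose in WT on the TMM scale, and 6 fell and 1 rose in pif4. Those that fell in both included rpl14, rpl16 and rps3. Scaled to total counts, 14 fell and 0 rose in WT, and 16 fell and 0 rose in pif4. Scaled to plastid reads, 11 fell and 1 rose in WT, and 11 fell and 0 rose in pif4. The call of rps3, with edgeR adjusted p = 0.019 in WT and 0.0494 in pif4, was lost in 4 of 6 leave-out fits in WT (without 22 °C b or c, or 37 °C a or c) and in 5 of 6 in pif4 (all but 22 °C a). rpl14, a protein of the large subunit, read 47.9, 54.1 and 51.6 CPM in WT at 22 °C and 21.2, 35.0 and 20.3 CPM at 37 °C, and fell by 0.99 ± 0.23, adjusted p = 0.0013 (edgeR). In pif4 it fell by 1.15 ± 0.23, adjusted p = 0.000313. rpl20 fell by 1.09 ± 0.30 in WT, with edgeR adjusted p = 0.00483, and read -0.53 ± 0.28 in pif4, with adjusted p = 0.131. rpl36 read -0.60 ± 0.30 in WT without passing the test and fell by 0.96 ± 0.30 in pif4. rpl32 rose in both genotypes on the TMM scale, from between 49.1 and 76.6 CPM to between 143 and 173 CPM in WT, by 1.36 ± 0.23. In pif4, where library a at 22 °C stood at 126 CPM beside 64.6 and 59.9, it rose by 0.97 ± 0.22, and to total counts it turned to -0.03. Of the remaining members, matK and accD, for a subunit of acetyl-CoA carboxylase, rose in both genotypes on the TMM scale. To total counts matK stood at -0.26 in WT and -0.19 in pif4 and accD at -0.43 and -0.10, and to plastid reads neither was called. In WT the call of matK was lost without 37 °C library b, and that of accD without 22 °C library c or 37 °C library b. ycf3, a photosystem I assembly factor, fell in both genotypes, a call lost in 3 of 6 leave-out fits in each (without 22 °C b or 37 °C a or c in WT, and without 22 °C b or 37 °C a or b in pif4). Of 9 RNA genes tested, trnS.1 was called higher in both, and its direction turned to total counts.

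**Figure D4:**
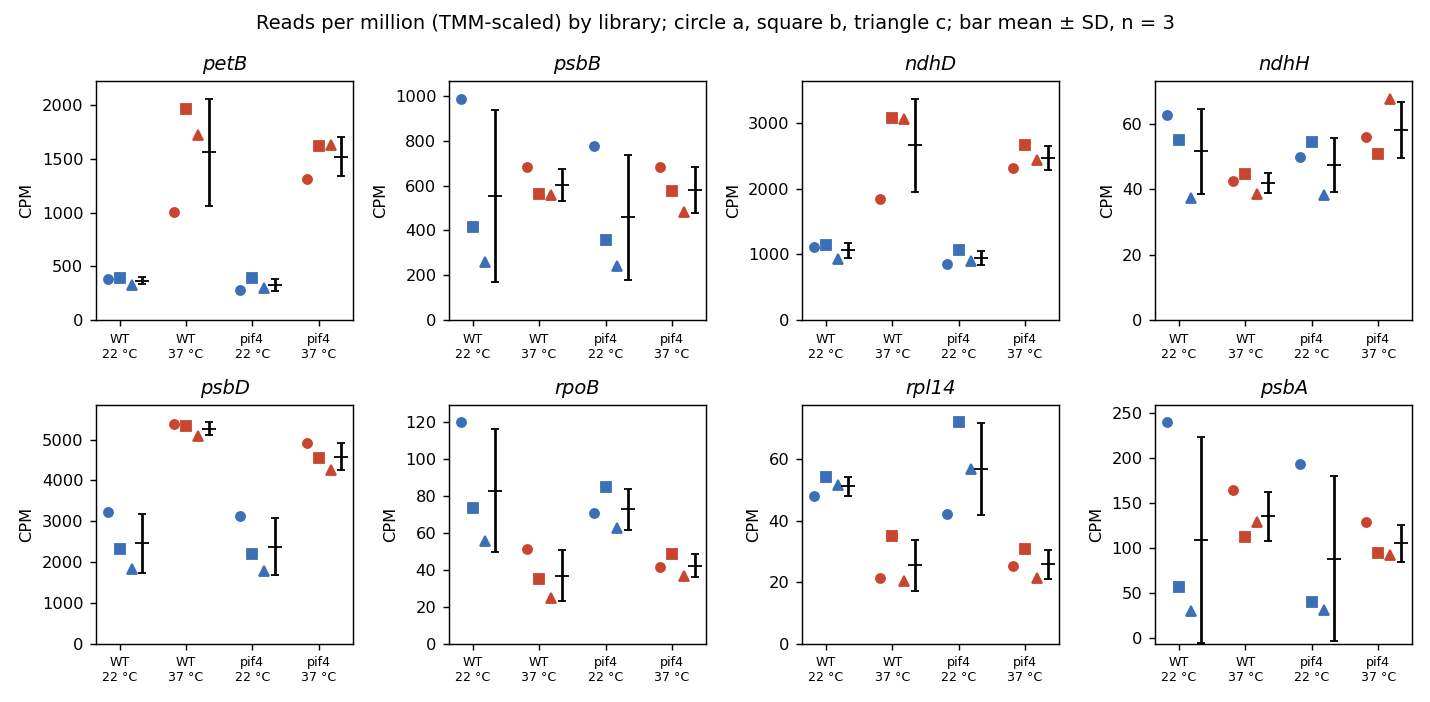
TMM-scaled CPM of 8 members in each library, with axes that hold 0 (circle a, square b, triangle c; blue 22 °C, red 37 °C; bar, mean ± SD, n = 3). The heated libraries lie above the controls for petB, ndhD and psbD and below them for rpoB and rpl14, while for psbA and psbB library a stands apart at 22 °C in both genotypes.

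The libraries lettered a at 22 °C, which with 3234886 and 3176106 reads were the shallowest of their groups, stood apart most for a few photosynthetic genes. This was seen in the values, and psbA, psbB, psbC, psbE and rbcL are named here for that reason. They were not alone: at 22 °C library a was highest for 31 of 50 well-read members in WT and 20 in pif4. In WT it stood above the lowest library by a factor of 2.37 for atpH, 2.12 for atpF and 2.16 for rpoB. psbA read 240, 57.0 and 29.7 CPM in the 3 WT libraries at 22 °C and 193, 39.5 and 30.8 CPM in pif4, where at 37 °C it lay between 112 and 165 CPM in WT and between 91.7 and 129 CPM in pif4. Library a was thus above every heated library and the other controls were below them. psbB, for the CP47 protein, read 988, 417 and 261 CPM in WT and 775, 358 and 241 CPM in pif4 at 22 °C. Over the 50 members with a mean of at least 50 CPM, the coefficient of variation at 22 °C had a median of 18.1% in WT and 18.9% in pif4, and reached 105% and 104% for psbA. With all libraries none of the 5 was called in either heat comparison on the TMM scale. Without the 2 libraries lettered a at 22 °C, the TMM-scaled heat change of psbA was 1.58 ± 0.26 in WT and 1.52 ± 0.26 in pif4. For psbB it was 0.78 ± 0.21 and 0.90 ± 0.21, for psbC 1.43 ± 0.18 and 1.12 ± 0.17, and for psbE 1.19 ± 0.21 and 1.12 ± 0.21. rbcL then stood at -0.06 ± 0.22 and 0.03 ± 0.22. The 5 genes were picked for a high library a, so a higher heat change without it follows from that choice. These values are therefore no test of heat. In WT, petB changed little without these libraries, at 2.06 ± 0.23 beside 2.09 with all. The fall of rpoB became smaller, at -0.89 ± 0.25 beside -1.19. The part of depth in this was not tested.

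Neighbours on the plastid genome had similar heat changes, with breaks inside known clusters. The 70 genes were placed in runs of protein-coding genes on one strand in the order of TAIR10.1, and the members named in this paragraph follow from that order. Between 52 neighbouring pairs, the heat changes differed by a median of 0.28 (log2) in WT and 0.30 in pif4, against 0.71 and 0.72 over all pairs of members. The run from rps19 to rpoA, which holds ribosomal proteins and ends in the polymerase subunit, showed 9 members all between -0.47 and -0.99 in WT and between -0.35 and -1.15 in pif4. The run from rpoB to atpA opened with rpoB, rpoC1 and rpoC2 at -1.19, -0.90 and -0.62 in WT, and atpA at its 3′ end read -0.25. In the run from rps15 to ndhD, which ends 3′ with the 2 NDH genes that flank psaC, the change went from -0.33, -0.29, -0.33 and -0.01 for rps15, ndhH, ndhA and ndhI to 0.84, 1.46, 1.37 and 1.33 for ndhG, ndhE, psaC and ndhD. In pif4 the same 8 read -0.16, 0.30, 0.02, -0.05, 1.00, 1.41, 1.42 and 1.39. The psbB cluster, transcribed from psbB to petD, read 0.12 for psbB, 0.62 for psbT, 0.79 for psbH, 2.09 for petB and 1.17 for petD in WT, and 0.35, 0.96, 0.89, 2.22 and 1.30 in pif4. The change did not become more positive towards the 3′ end in general: the downstream gene had the more positive log2 fold change in 24 of 52 pairs in both genotypes. Differences between neighbours were not tested.

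**Figure D5:**
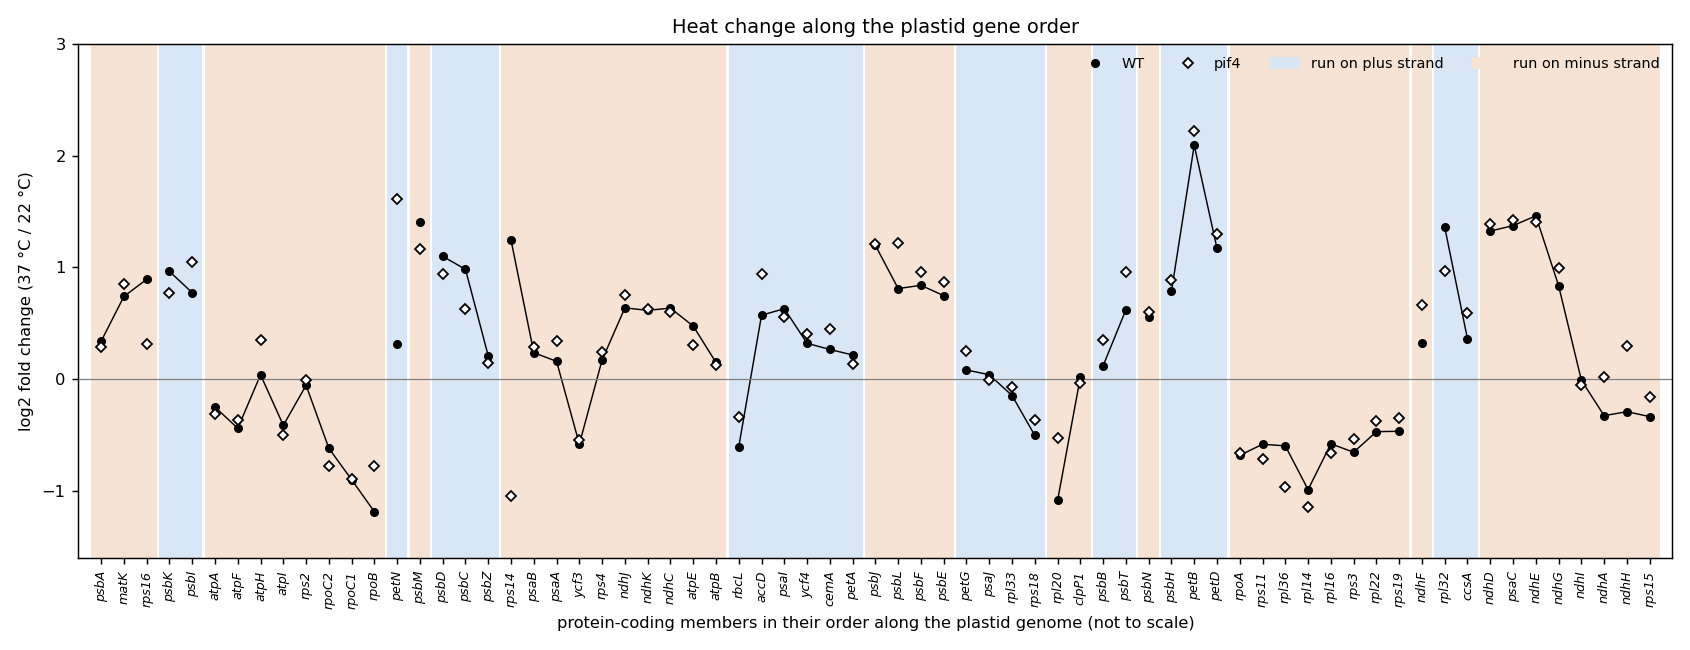
Log2 fold change at 37 °C against 22 °C (TMM scaling) of protein-coding members in their order along the plastid genome, in WT (filled) and pif4 (open); shading marks runs on the plus (blue) and minus (orange) strand, and lines join WT values within a run. The run ending in rpoA stays below 0, and the values rise from rps15 to ndhD and from psbB to petB.

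Base composition went with the heat change across members. The share of A in the coding sequence ranged from 20.7% to 40.4% with a median of 30.1%, and its Spearman correlation with the heat change over 70 genes was -0.52 in WT and -0.60 in pif4. The share of A and T together showed 0.03 and 0.09. Composition and function overlap: ribosomal protein genes had a median of 36.6% A and RNA polymerase genes of 32.5%, against 25.0% in photosystem II, 24.6% in cytochrome b6f and 29.2% in NDH genes. These are descriptions over genes that share libraries and transcripts. The 9 genes with more than 1 exon, among them petB, petD, ndhA, atpF and rpoC1, had a median change of -0.33 in WT and -0.04 in pif4, beside 0.27 and 0.34 in the 61 others.

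The libraries labelled pif4 were compared with WT at each temperature. edgeR's quasi-likelihood test called 0 of 84 members between pif4 and WT at 22 °C, where 0.0852% of all genes were called, and 0 at 37 °C, where 0.0533% were. DESeq2 called 0 in both as well. At an unadjusted p under 0.05 there were 0 members at 22 °C and 1 at 37 °C, ndhH. ndhH read 42.5, 44.6 and 38.5 CPM in WT and 56.1, 50.8 and 67.7 CPM in pif4 at 37 °C, a difference of 0.47 ± 0.20 with adjusted p = 0.411 by edgeR. The difference in heat effect between genotypes was called for 0 members, and 0% of all genes were called; ndhH was again the single member at an unadjusted p under 0.05, with 0.59 ± 0.28. For petB the unadjusted 95% interval of the genotype difference ran from -0.55 to 0.21 at 22 °C and from -0.42 to 0.34 at 37 °C. For rpoB it ran from -0.67 to 0.32 and from -0.30 to 0.77, and for ndhH at 37 °C from 0.08 to 0.87. These intervals hold for the genes named and do not bound the set. Over all members tested, estimates ran from -1.065 to 0.48 at 22 °C and from -1.815 to 0.88 at 37 °C. The estimates lay within 0.5 of 0 for 82 of the 84 members at 22 °C and 79 at 37 °C, with a median SE of 0.22 at both.

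Genes of the nucleus that act on plastid transcription and RNA decay are given from a list of 27 genes. In WT 7 rose and 6 fell, and in pif4 9 rose and 4 fell, near the shares of all genes given above, with medians of -0.06 and 0.16. To total counts the split was 5 and 20 in WT and 4 and 17 in pif4. On that scale 13.3% and 13.1% of all genes called were higher. RPOTp, the phage-type polymerase of plastids, read 12.0 ± 3.31 CPM (SD, n = 3) in WT at 22 °C and 66.3 ± 1.80 at 37 °C, a rise of 2.51 ± 0.25 with edgeR adjusted p = 4.98e-08, and stayed called to total counts with 1.49. RPOTmp, shared by plastids and mitochondria, rose by 1.54 ± 0.53 in WT and 1.59 ± 0.52 in pif4, and was not called under the other scalings. Of the proteins that accompany the bacterial-type polymerase, PTAC5 and FLN1 rose in both genotypes, with PTAC5 at 18.4 ± 2.91 CPM in WT at 22 °C and 95.3 ± 7.13 at 37 °C. FLN1 stood at 0.95 in WT and 0.57 in pif4 to total counts, and was not called there in pif4. PTAC3 and PTAC12 fell in both genotypes under all 3 scalings. PTAC6 rose on the TMM scale, by 0.98 ± 0.17 in WT, and turned to -0.04 to total counts. The sigma factor gene SIG4, whose product guides that polymerase to the ndhF promoter, fell by 1.44 ± 0.38 in WT and by 0.87 ± 0.34 in pif4, while ndhF read 0.32 ± 0.17 in WT and 0.67 ± 0.17 in pif4 and turned below 0 to total counts, with -0.69 and -0.37. PNP, for the plastid enzyme that both adds and degrades tails, fell by 0.86 ± 0.24 and 0.87 ± 0.24. CSP41A, an RNA-binding protein of plastids, rose by 1.86 ± 0.16 and 1.66 ± 0.16. HSP21, the plastid small heat shock protein, read 0.253 ± 0.0418 CPM at 22 °C and 10020 ± 800 at 37 °C in WT.

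The mitochondrion-encoded genes differed in extent on the same scale. Of 39 tested, 35 were called higher in WT and 33 in pif4, and 0 lower, with a median change of 2.5 and 2.24, beside 0.25 and 0.30 for plastid members. To total counts 24 were higher and 1 lower in WT and 21 and 1 in pif4, where 13.3% and 13.1% of all genes called were higher. The difference between the 2 sets was not tested.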

How the data were processed

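Read counts per gene were used as the authors deposited them, per the file headers in columns of counts beside length-normalised values; the build was TAIR10 per the submitters' processing notes, and for the aligner, the counter and the strand no tool is named in the sources used here. Column names tied 12 libraries to 4 groups; 36 further per-sample columns were not used, because their names match no label or repeat the same libraries in another unit. Of 11 comparisons laid out, 5 could be run. edgeR 4.0.16 in R 4.3.3 (TMM, filterByExpr, robust quasi-likelihood F test, 1 mean per group) was fitted to 18774 genes, with Benjamini-Hochberg adjustment over all of them, and was tested on simulated data. Log2 fold changes carry SE = |log2 fold change| / √F. DESeq2 1.42.0, other scalings, filters, a letter block and left-out libraries were alternatives. Totals run from 3176106 to 14791597 counts, and depth limits low members. No PCR correction is stated, so counting error is a lower limit.

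The members and gene lists were chosen with earlier results of these data known. Genes named were the 2 most read members of each class, the 5 largest called rises and falls of each heat comparison, called members of the genotype comparisons, and called genes of the nuclear list; others are named by their place in a cluster, class or count and were chosen after their values were seen. Gene structure and sequence came from the RefSeq annotation of TAIR10.1, to which 70 members were matched by name; its coordinates were not combined with those of TAIR10. Transfer RNA rows with no match and genes of the inverted repeat are not described. 1 member that is counted in the totals is not reported by name here.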

Additional observations from a re-analysis of the deposited data

How the results depend on the processing

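Scaling was the choice that moved most. To total counts, 3 members were called higher and 45 lower in WT and 2 and 47 in pif4, and to plastid reads 7 and 26 in each. Of all genes called, 13.3% in WT and 13.1% in pif4 were higher to total counts, and 24.1% and 24.7% to plastid reads. Of 84 tested members, 45 changed sign to total counts in WT and 42 in pif4, among them 17 and 16 of those called higher, and 24 and 22 changed sign to plastid reads. Among the members chosen by the naming rule, the turned values to total counts were, in WT, matK -0.26, trnS.1 -0.12, psbC -0.012, psaB -0.77, psaA -0.84, atpB -0.86, cemA -0.74, petA -0.79 and ndhF -0.69, and in pif4, matK -0.19, trnS.1 -0.15, psbD -0.061, psbC -0.36, psaB -0.74, psaA -0.68, atpB -0.90, cemA -0.58, petA -0.89, ndhF -0.37 and rpl32 -0.029. To plastid reads they were, in WT, psaB -0.30, psaA -0.37, atpB -0.38, cemA -0.28, petA -0.30 and ndhF -0.24, and in pif4, psaB -0.24, psaA -0.18, atpB -0.41, cemA -0.078 and petA -0.39. The construction of the scalings fixes a shift common to all genes, with the median of all genes lower by 1.02 in WT to total counts.

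Leaving out 1 library at a time gave 18 to 29 members higher and 7 to 12 lower in WT, and 21 to 29 higher and 6 to 13 lower in pif4; the fewest higher came without 22 °C library c in each genotype, and the number lower moved by over 1.5 times, to 7, without WT 37 °C library c and, to 6, without pif4 22 °C library b or pif4 37 °C library a. psaA in WT turned to -0.0088 without WT 22 °C library c and -0.013 without WT 37 °C library b, in a range up to 0.36, and rbcL in pif4 to 0.077 without pif4 22 °C library a; without both 22 °C libraries lettered a, an alternative chosen after seeing the data, it was 0.027, with 45 members called in WT and 46 in pif4. Without chaperone reads the plastid share at 37 °C was 2.75% in WT and 2.61% in pif4, against 3.12% and 2.92% at 22 °C. The cause was not tested. With the letters as a replicate block, 46 members were called in WT and 45 in pif4, and none in the genotype comparisons. Deviations of same-lettered libraries correlated between -0.083 and 0.258. The 4 of 18 pairs over 0.1 were all of letter a, with 0.258 between WT and pif4 at 22 °C. No label ties the letters to replicates, so the main fit did not pair samples by letter. Whether the libraries lettered a share an origin was not tested. DESeq2 called 38 and 39. Members under a few reads per library cannot be resolved at this depth.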
